A study of Mus musculus with 6 samples.

Results

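The miR-23/27/24 family of the mouse is made from a pair of gene clusters, Mir23a, Mir27a and Mir24-2 on chromosome 8 and Mir23b, Mir27b and Mir24-1 on chromosome 13. These 6 hairpins were chosen by name out of 1174 annotated mouse miRNA hairpins, of which 701 had reads, and all 6 were detected. Their reads fall on 11 arms, since the 3p arms of both miR-24 hairpins are identical and were counted as 1. Of the 11 arms 9 passed a filter on low counts, which 318 of 974 arms with reads passed in all. Small RNAs of bone marrow monocytes, also called BMMs, from wild-type C57BL/6 mice were sequenced in 3 control samples and 3 samples given LPS, the lipopolysaccharide of the bacterial outer membrane, at the super-low dose of 5 pg/ml for 4 h. The control samples received PBS in place of LPS. All 6 cultures share strain and genotype, the labels name DMEM as their medium where the methods name RPMI, and nothing says whether the replicates numbered 1 to 3 came from separate animals. The p-values therefore measure the spread between these samples, which may be technical.

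A miRNA hairpin is cut from a longer transcript by Drosha and then by Dicer, which leaves a short duplex of a 5p and a 3p arm. One arm is usually kept by an Argonaute protein and the other is degraded, and the seed, the bases near the 5′ end, pairs with target messenger RNAs. Hairpins of 1 cluster can be cut from the same primary transcript, yet each mature product has its own rate of processing, loading and decay. In myeloid cells miR-23a and miR-27 have been tied to lineage choice and to inflammatory signalling, and miR-24 to cell cycle and cytokine control.

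The mature sequences show what the reads can and cannot tell apart. They are RefSeq entries of build GRCm38.p6, found for 10 of the 11 arms, with the seed (bases 2 to 8) in capitals. miR-27a-3p and miR-27b-3p share the seed UCACAGU, miR-23a-3p has UCACAUU, and miR-24-3p has GGCUCAG, which 4 other RefSeq mouse miRNAs (miR-5124b, miR-6369, miR-6410 and miR-6413) also carry.
miR-23a-3p: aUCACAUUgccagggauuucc
miR-27a-3p: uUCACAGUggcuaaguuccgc
miR-27b-3p: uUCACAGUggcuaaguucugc
miR-24-3p: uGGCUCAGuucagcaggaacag

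miR-27a-3p and miR-27b-3p are the same at 20 of 21 bases and differ by C19U, counted from 1 at the 5′ end, with the base of miR-27a first. The 5p arms of miR-24 are the only products that separate Mir24-1 from Mir24-2, and they are the same over the first 16 bases. In the miR-27 pair the base that differs is in capitals here. In the miR-24 pair the capitals run from the first base that differs to the 3′ end, and also cover bases that both arms share.
miR-27a-3p: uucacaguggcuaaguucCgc
miR-27b-3p: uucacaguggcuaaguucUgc
miR-24-1-5p: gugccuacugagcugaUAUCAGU
miR-24-2-5p: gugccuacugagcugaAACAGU

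All 6 hairpins lie on the plus strand (GRCm38), and their sequences are identical in GENCODE and RefSeq. The chromosome 8 cluster spans 404 bases, with Mir23a at chr8:84208518-84208592, Mir27a at chr8:84208672-84208758 and Mir24-2 at chr8:84208815-84208921. Mir23a and Mir27a lie outside other annotated genes, and the last 2 bases of Mir24-2 fall in an exon of the long non-coding RNA Gm26532. The chromosome 13 cluster spans 792 bases, with Mir23b at chr13:63300484-63300557, Mir27b at chr13:63300712-63300784 and Mir24-1 at chr13:63301208-63301275. It lies inside the protein-coding gene 2010111I01Rik on the same strand and Fancc on the opposite strand. Mir23b is intronic in both genes, while Mir27b and Mir24-1 overlap exons of 2010111I01Rik transcripts annotated as targets of nonsense-mediated decay.

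The samples held between 2201520 and 17691405 reads, of which 61.6% to 71.0% matched a miRNA hairpin. LPS replicate 2 stood apart from the other 5 samples. It was the deepest, and sequences read a single time made up 18.6% of its distinct reads and 67.1% to 74.6% of those of the others. The 5 arms taken as myeloid or haematopoietic markers (of miR-223, miR-142, miR-21a and miR-155) all had reads. They summed to 156798 to 198807 reads per 1000000 hairpin reads, the unit RPM used below for every level. Most of this sum was miR-21a-5p (122795 to 164339 RPM), while miR-223-3p stood at 5607 to 6089 RPM. Of 17 markers of other cell types, 13 had reads and 4 were at 0 in all samples (miR-1a-3p, miR-124-3p, miR-144-3p and miR-145a-5p), and together they summed to 87.2 to 113 RPM in 5 samples and to 216 RPM in LPS replicate 2. Results that rest on that library are therefore given with and without it or sample by sample, and its part in the results beyond that was not tested. In bulk samples such as these, fewer cells of a type and less RNA per cell cannot be told apart.

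The 6 hairpins supplied about the same part of the miRNA reads in every sample. In the control samples they took 20.4%, 19.6% and 20.2% of the hairpin reads in replicates 1, 2 and 3, and in the LPS samples 20.2%, 19.8% and 19.5%. Most of this was miR-27b-3p, the second most abundant arm in 5 samples and the third in LPS replicate 2. It reached 190003, 180092 and 185179 RPM in the control samples and 187950, 126554 and 178858 RPM in the LPS samples. LPS replicate 2 thus lay below the range of the other 5 samples for this arm.

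Its chromosome 8 counterpart, miR-27a-3p, reached 6652, 7526 and 7246 RPM in the control samples and 6630, 6930 and 6913 RPM in the LPS samples. miR-23a-3p stood at 2062, 2326 and 2202 RPM in the control samples and at 1998, 2037 and 2204 RPM in the LPS samples. miR-23b-3p stood at 2403, 2614 and 2805 RPM in the control samples and at 2307, 2617 and 2696 RPM in the LPS samples. For these 3 arms the groups overlapped, and LPS replicate 2 lay inside the range of the other samples.

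miR-24-3p, which both clusters supply, was the exception. It measured 1505, 1608 and 2261 RPM in the control samples and 1609, 57406 and 2154 RPM in the LPS samples. LPS replicate 2 held 35.7 times the median of the other 5 samples, and the other LPS samples lay inside the control range. Among all 318 arms tested, 11 (3.46%) were over 4-fold above the highest of the other 5 samples in this library, and miR-24-3p was the 1 arm of the clusters among them.

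The 5p arms, the partners released from the same duplexes, were all less abundant. miR-24-2-5p reached 1250 to 1370 RPM in the control samples and 1283, 1721 and 1292 RPM in the LPS samples. miR-27b-5p lay between 253 and 380 RPM, miR-27a-5p between 77.4 and 135 RPM and miR-24-1-5p between 18.1 and 24 RPM over all 6 samples. miR-23a-5p had 1 to 94 reads and miR-23b-5p 1 to 50 reads per sample, too few to be tested. In order of control mean, the levels ran from miR-27b-3p through miR-27a-3p (7141 ± 446 RPM, SD, n = 3), miR-23b-3p (2608 ± 201), miR-23a-3p (2197 ± 132), miR-24-3p (1792 ± 410) and miR-24-2-5p (1326 ± 65.9) to miR-27b-5p (305 ± 44.9), miR-27a-5p (103 ± 25.8) and miR-24-1-5p (20.8 ± 2.69). The control ranges of miR-23a-3p and miR-24-3p overlapped, so these neighbours did not differ beyond their spread, while all other neighbours in this order had control ranges apart. Counts of different small RNAs also carry the preferences of adaptor ligation, which were not measured here.

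**Figure D1:**
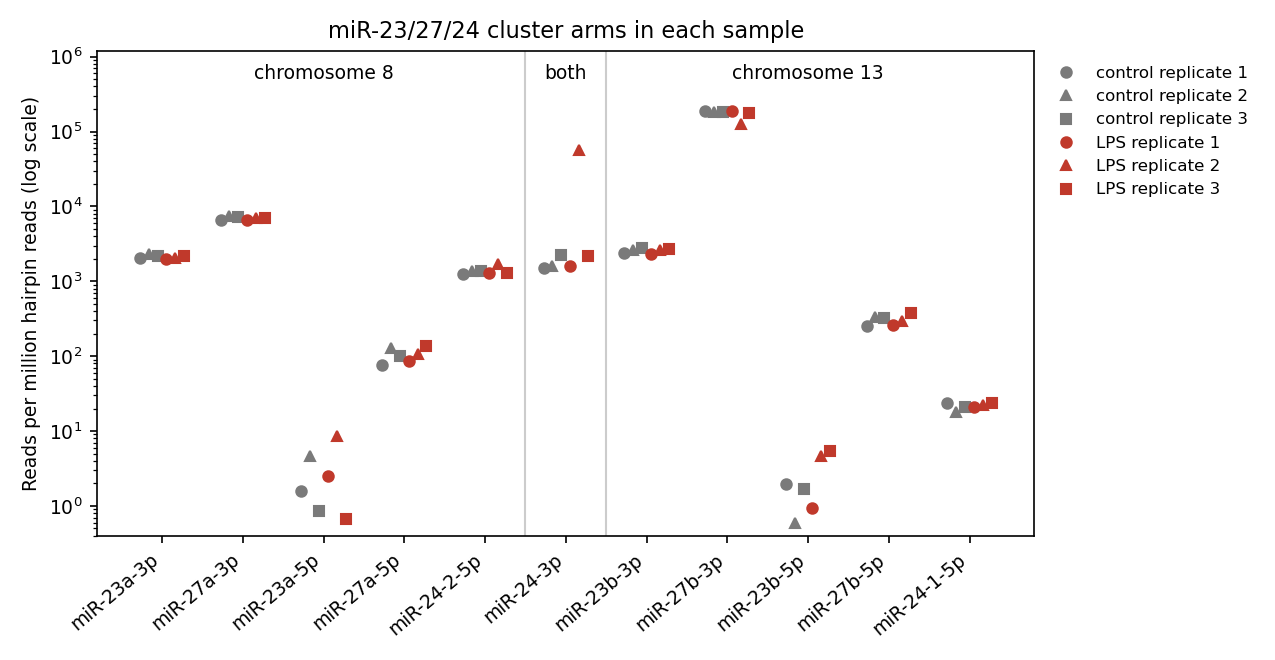
Level of each cluster arm in each sample, in RPM on a log axis, by cluster, with grey symbols for control, red symbols for LPS and a shape for each replicate number. On this axis the 3p arms of miR-23 and miR-27 differ little between samples, though miR-27b-3p is lower in LPS replicate 2 (126554 against 178858 to 190003). LPS replicate 2 alone lifts miR-24-3p, to 57406 against 1505 to 2261 in the other 5.

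The clusters did not contribute to the arms compared here in 1 proportion. For miR-27, the chromosome 13 copy was 18.3 to 28.6 times the chromosome 8 copy (mean log2 ratio 4.63 ± 0.24, SD, n = 6, exact two-sided sign-flip permutation p = 0.031). For miR-23, the copies were close to even, with the chromosome 13 copy 1.12 to 1.29 times the chromosome 8 copy (mean log2 ratio 0.27 ± 0.08, SD, n = 6, exact two-sided sign-flip permutation p = 0.031). For miR-24 only the 5p arms could be compared. There the chromosome 8 copy was higher, with 53.3 to 77.4 reads of miR-24-2-5p for each read of miR-24-1-5p. A 5p ratio need not equal the 3p ratio of the same hairpins. For miR-27 the 5p arms stood at 253 to 380 RPM (miR-27b-5p) and 77.4 to 135 RPM (miR-27a-5p), closer together than the 3p arms. How the hairpins share miR-24-3p is therefore not known.

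The value 0.031 is the smallest that 6 samples allow if they are independent. Same-numbered samples deviated together, and with the samples of each replicate number averaged the exact permutation p was 0.25, the smallest that 3 values allow. No ratio changed direction between samples. The miR-23 order depended on how 3′ ends were read. With exact matches to the hairpin only, the mean log2 ratio of miR-23b-3p to miR-23a-3p was -0.68 in place of 0.27, because the most frequent read of miR-23b-3p ends in 1 base that its hairpin lacks. Summed over miR-23-3p and miR-27-3p, the chromosome 13 cluster gave 14.4 to 22.1 times the reads of the chromosome 8 cluster (mean log2 ratio 4.27 ± 0.23, SD, n = 6, exact two-sided sign-flip permutation p = 0.031).

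Expressed as shares, miR-27a made up 3.38%, 4.01% and 3.77% of the miR-27-3p reads in the control samples and 3.41%, 5.19% and 3.72% in the LPS samples. miR-23a made up 46.2%, 47.1% and 44.0% of the miR-23-3p reads in the control samples and 46.4%, 43.8% and 45% in the LPS samples. Mir24-2 gave 98.2% to 98.7% of the miR-24-5p reads in all samples. The 95% Wilson intervals of single samples, which cover counting error only, reached at most 0.0703, 1.14 and 0.597 percentage points to either side for these 3 shares. The miR-27a share in LPS replicate 2 was thus above all other samples by more than counting error, while the other 5 samples overlapped between groups.

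Reads of miR-27a and miR-27b are split by base 19 alone, and the other bases seen there give a rough scale of reading errors. They do not measure T read as C, and only reads of at least 20 nt were counted in this check. C, the base of miR-27a, was read in 3.00% to 4.76% of the miR-27 reads, whereas A was read in 0.002% to 0.005%. G was read in 0.038% to 0.078% in 5 samples and in 0.002% in LPS replicate 2. Both are bases that neither copy carries, and they were far rarer than C in every sample. Reads too short to settle the copy were left out and came to 0.342% to 0.534% of the miR-27-3p reads and 0.569% to 0.987% of the miR-23-3p reads.

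**Figure D2:**
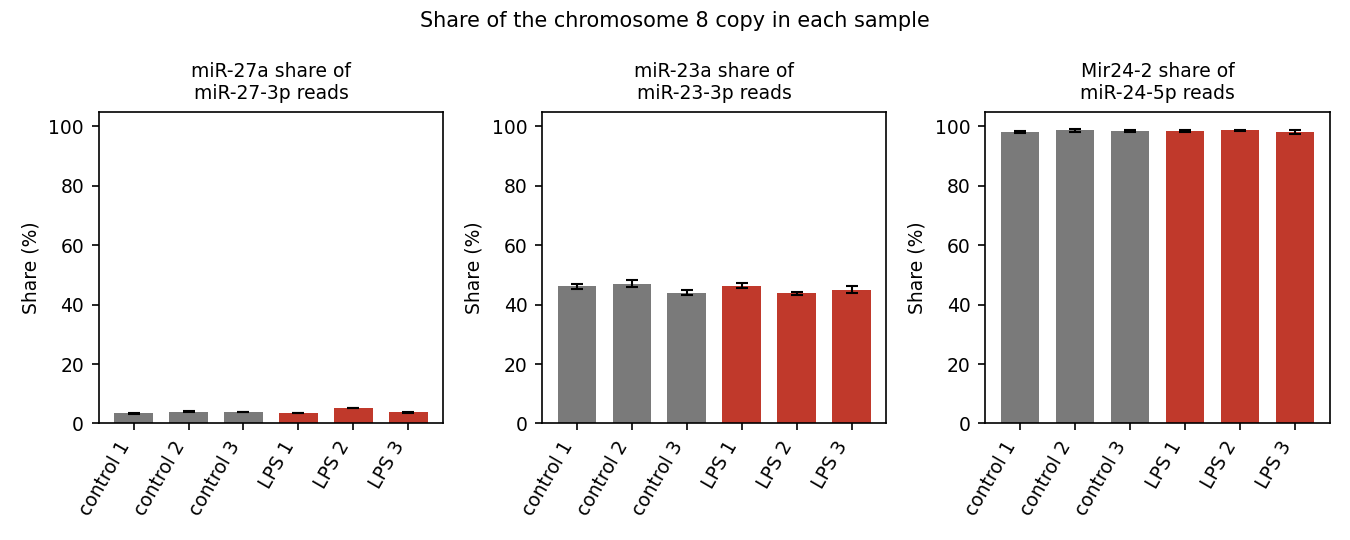
Share of reads, in percent, from the chromosome 8 copy for miR-27-3p, miR-23-3p and miR-24-5p in each sample, with grey bars for control, red bars for LPS and 95% Wilson intervals as error bars. The share runs from 3.38% to 5.19% for miR-27a through 43.8% to 47.1% for miR-23a to 98.2% to 98.7% for Mir24-2.

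Within the chromosome 8 cluster miR-23a-3p and miR-27a-3p kept a steady proportion in all 6 samples, and miR-24-2-5p did so in 5 samples. Per 100 reads of miR-27a-3p there were 31.0, 30.9 and 30.4 reads of miR-23a-3p in the control samples and 30.1, 29.4 and 31.9 in the LPS samples. LPS replicate 2 had the lowest of these 6 ratios, which all lay between 29.4 and 31.9. miR-24-2-5p ran at 18.2 to 19.3 reads per 100 reads of miR-27a-3p in 5 samples and at 24.8 in LPS replicate 2. In 318 arms, miR-23a-3p was also the second closest to miR-27a-3p in its pattern over the 6 samples (Pearson r = 0.88 on log2(RPM + 1), n = 6), after miR-182-5p (r = 0.88), and given as a description. Without LPS replicate 2 the values were 0.93 and 0.92 over 5 samples.

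Within the chromosome 13 cluster miR-27b-3p dwarfed the other products. Per 100 reads of miR-27b-3p there were 1.23 to 1.51 reads of miR-23b-3p in 5 samples and 2.07 in LPS replicate 2. miR-24-1-5p came to 0.010 to 0.013 reads per 100 reads of miR-27b-3p in 5 samples and to 0.018 in LPS replicate 2. Both ratios were highest in that library, where miR-27b-3p was lowest and where miR-23b-3p and miR-24-1-5p lay inside the range of the other samples. Summed over both clusters, there were 2.21 to 2.64 miR-23-3p reads per 100 miR-27-3p reads in 5 samples and 3.49 in LPS replicate 2. miR-24-3p came to 0.765, 0.857 and 1.18 per 100 miR-27-3p reads in the control samples and to 0.827, 43 and 1.16 in the LPS samples.

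Arm use differed between the hairpins by orders of magnitude. miR-27b gave 432 to 751 reads of its 3p arm for each 5p read, and miR-27a gave 51.0 to 85.9. The 5p arm took 0.030% to 0.421% of the miR-23a reads and 0.022% to 0.198% of the miR-23b reads. miR-24 was nearly even, and its 5p arms took 45.8%, 46.3% and 37.9% of the miR-24 reads in the control samples and 44.8%, 2.95% and 37.9% in the LPS samples. In LPS replicate 2 there were 32.9 miR-24-3p reads for each miR-24-5p read, against 1.16 to 1.64 in the other 5 samples.

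The other products of the clusters had other ratios to the remaining samples in LPS replicate 2 than miR-24-3p. The hairpins of miR-24-2-5p and miR-24-1-5p both yield miR-24-3p, and its reads cannot be assigned to either. In that library miR-24-2-5p was at 1.33 times the median of the other 5 samples, and miR-24-1-5p was at 1.05 times. The neighbours miR-23a-3p, miR-27a-3p and miR-23b-3p were at 0.925, 1.00 and 1.00 times that median, miR-27a-5p at 1.06 times, miR-27b-5p at 0.900 times and miR-27b-3p at 0.683 times. The sparsely read miR-23a-5p and miR-23b-5p were at 5.50 and 2.71 times, from 94 and 50 reads in that library and 1 to 8 reads in each of the others. The hairpins Mir3074-1 and Mir3074-2, annotated on the opposite strand of the miR-24 hairpins, shared a 5p arm with 2.74 to 6.34 RPM over the 6 samples and 3.75 RPM in LPS replicate 2.

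LPS and control samples were compared over all 318 arms with edgeR's quasi-likelihood test. At an adjusted p under 0.05 it called 0 of the 318 arms in either direction (0%), and hence 0 of the 9 arms of the clusters. At an unadjusted p under 0.05, edgeR gave 7 of the 318 arms higher, miR-24-3p among them (edgeR unadjusted p = 0.042), and 1 lower. DESeq2 gave 4 of the 318 arms in all and 0 after adjustment. DESeq2 returned no p-value for miR-24-3p (log2 fold change 3.50, SE 1.41), so its counts do not cover that arm. Of the 9 arms of the clusters 5 had a positive and 4 a negative log2 fold change, with a median of 0.004 beside 0.003 over all arms tested. On normalized counts miR-23a-3p was the 1 arm of the 9 with every LPS sample below every control sample (2065, 2033 and 2099.2 against 2167, 2401 and 2099.5 CPM), a pattern that 1.57% of all arms showed, and on the RPM scale its groups overlapped.

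The log2 fold changes of the 3p arms were -0.11 (SE 0.11) for miR-23a-3p, -0.09 (SE 0.11) for miR-27a-3p, -0.06 (SE 0.11) for miR-23b-3p and -0.20 (SE 0.18) for miR-27b-3p. Without LPS replicate 2 they were -0.11, -0.12, -0.11 and -0.06. For miR-24-3p the value was 3.50 (SE 1.39, edgeR adjusted p = 0.995), with a level higher than every control sample in 1 of 3 LPS samples. Without LPS replicate 2 it was 0.02, and with the replicate number as a block it was 1.34 (edgeR adjusted p = 0.869).

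The 5p arms did not pass the test either. Their log2 fold changes were 0.07 (SE 0.25) for miR-27a-5p, 0.09 (SE 0.16) for miR-24-2-5p, 0.004 (SE 0.18) for miR-27b-5p and 0.08 (SE 0.20) for miR-24-1-5p. That of miR-24-2-5p was -0.09 without LPS replicate 2. Of 18 hairpins tied to LPS responses, such as those of miR-155 and miR-146, 21 arms were tested and 0 were called, with a median log2 fold change of -0.01, and of -0.03 without LPS replicate 2. Of these arms 2 were among the 11 over 4-fold above all other samples in LPS replicate 2. miR-146-5p stood there at 55426 RPM, against 2822 to 4515 RPM in the other 5 samples, and miR-146b-5p at 2966 RPM, against 223 to 604 RPM. miR-155-5p, not past 4-fold, was at 212 RPM, against 49.0 to 75.3 RPM. These 3 arms, named after their values were seen, were thus high in the same library as miR-24-3p, and without it their log2 fold changes were -0.16, 0.04 and 0.11. Of the other arms of the list, miR-132-3p, miR-146-3p and miR-147-3p also lay above the range of the other 5 samples there. Below that range lay miR-212-3p (0.82 against 2.33 to 6.00 RPM), miR-125b-5p (885 against 1232 to 1652 RPM), miR-125b-2-3p, miR-221-5p and miR-223-5p. The remaining arms of the list lay inside it.

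**Figure D3:**
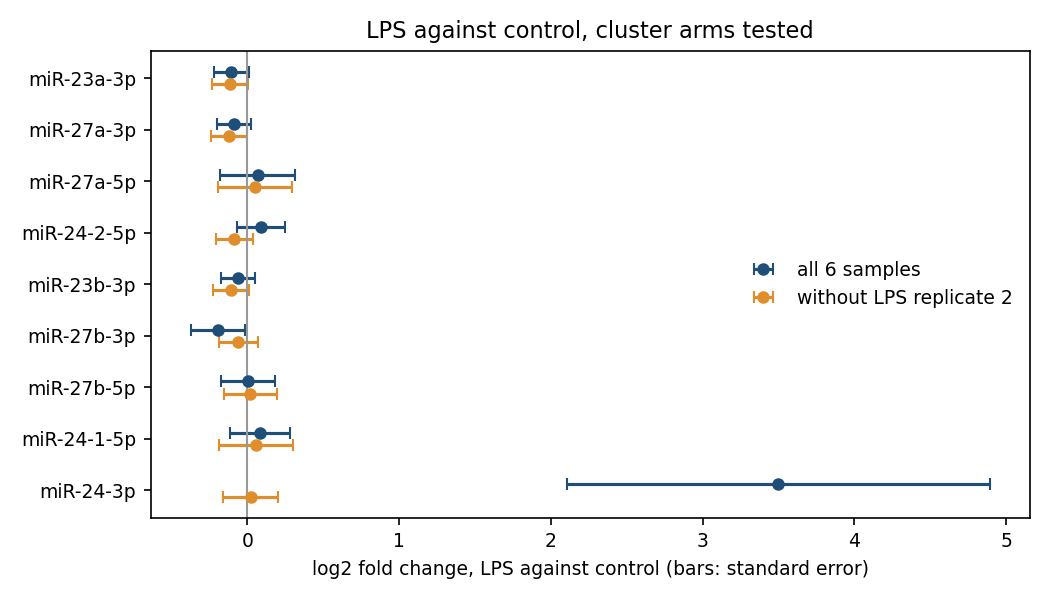
Log2 fold change, LPS against control, of the 9 cluster arms tested, with all 6 samples (blue) and without LPS replicate 2 (orange), where bars are standard errors. With all samples miR-24-3p stands at 3.50 and without LPS replicate 2 at 0.02, and the other 8 arms lie between -0.20 and 0.09 with all samples.

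Shares, stoichiometry and end variants gave 25 further comparisons between the groups by exact two-sided permutation tests, for which 3 samples against 3 allow no p below 0.1. The smallest adjusted p (Benjamini-Hochberg over the 25 exact permutation tests) was 0.972. The smallest exact permutation p, 0.1, was reached once, by the share of miR-27a-3p reads with a shifted 5′ start. It was 0.206%, 0.178% and 0.216% in the control samples and 0.271%, 0.310% and 0.357% in the LPS samples, with no overlap between the groups. A shifted start moves the seed, and for this arm it concerned at most 0.357% of the reads in any sample.

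The ends of the reads were the next layer of variation, and for miR-24-3p they set LPS replicate 2 apart. The 4 reads below carry this pattern. They are written as read, in DNA letters, with a base that neither miR-24 hairpin accounts for in a capital.
miR-24-3p, 22 nt plus T: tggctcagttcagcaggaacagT
miR-24-3p, 22 nt: tggctcagttcagcaggaacag
miR-24-3p, 20 nt: tggctcagttcagcaggaac
miR-24-3p, 22 nt plus A: tggctcagttcagcaggaacagA

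The 22 nt form took 23%, 26.0% and 22.7% of the miR-24-3p reads in the control samples and 24.1%, 54.8% and 21.6% in the LPS samples. The form with 1 added T took 28.2% to 35.8% in 5 samples and 32.9% in LPS replicate 2. The 20 nt form took 12.9% to 18.7% in 5 samples and 2.35% in LPS replicate 2, and the form with 1 added A took 6.16% to 7.71% in 5 samples and 1.0% in LPS replicate 2. In that library the whole of miR-24-3p was thus shifted towards the 22 nt form, with shares of the T-ended form inside the range of the other samples.

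As levels, every one of these forms was above the other samples in LPS replicate 2, but unequally. The 22 nt form was at 75.2 times the median RPM of the other 5 samples, and the T-ended form at 33.5 times. The 20 nt form was at 5.51 times and the A-ended form at 5.14 times. Reads that start at another base than the main one took 5.66% to 8.13% of miR-24-3p in 5 samples and 2.70% in LPS replicate 2.

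The difference between 2 samples in all end variants of an arm can be given as a distance in percentage points, 0 for the same mixture and 100 for no shared variant. For miR-24-3p the 10 pairs among the other 5 samples lay 4.08 to 13.4 points apart, and LPS replicate 2 lay 31.3 to 38.7 points from each of them. For miR-27b-5p the values were 4.07 to 9.64 and 16.8 to 23.7 points, and for miR-24-2-5p they were 1.80 to 5.77 and 7.08 to 11.2 points. For miR-27b-3p, the most deeply read arm, they were 0.491 to 4.48 and 1.07 to 3.54 points, so that LPS replicate 2 was no farther from the others than these were from each other. miR-27a-3p, at 1.43 to 5.67 and 5.89 to 10.2 points, lay between these cases.

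**Figure D4:**
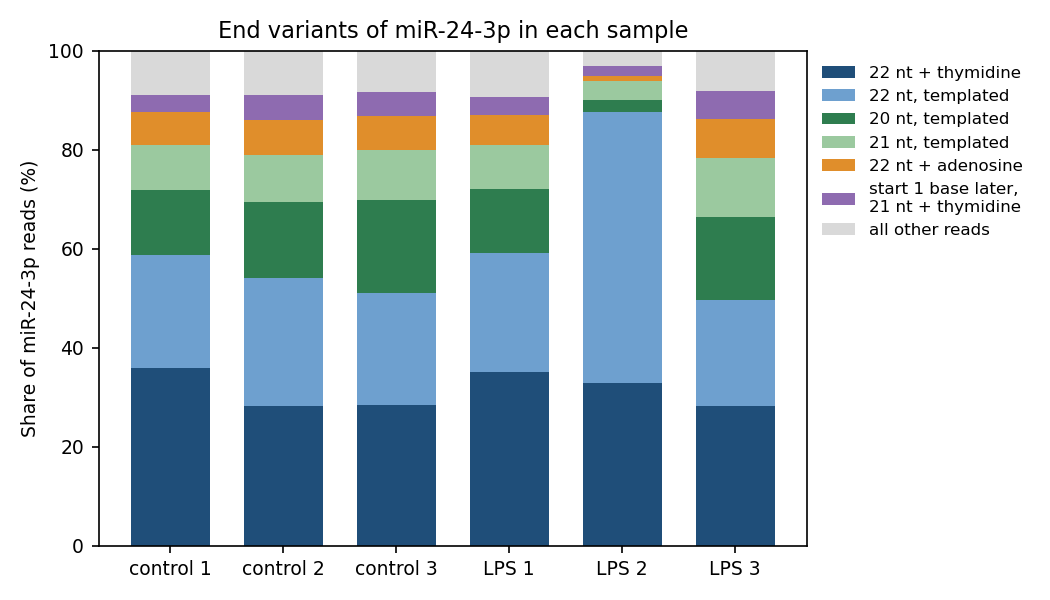
Share of the miR-24-3p reads, in percent, taken by its 6 most frequent read forms in each sample, stacked to 100 with all other reads in grey. The 22 nt templated form takes 54.8% in LPS replicate 2 and 21.6% to 26.0% in the other 5 samples.

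The miR-27 arms had 1 dominant form each. The main reads of miR-27b-3p and miR-27a-3p, shown because together they hold most miR-27 reads, are both 20 nt long, 1 base shorter than the RefSeq entries.
miR-27b-3p, 20 nt: ttcacagtggctaagttctg
miR-27a-3p, 20 nt: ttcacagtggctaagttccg

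The 20 nt form took 64.6%, 61.3% and 60.4% of the miR-27b-3p reads in the control samples and 64.2%, 61.2% and 60.7% in the LPS samples. Of the miR-27a-3p reads it took 58.6%, 63.7% and 62.2% in the control samples and 58.9%, 68.2% and 62.9% in the LPS samples. The groups overlapped for both arms. The 21 nt form of the RefSeq entry took 22% to 25.1% of miR-27b-3p and 9.25% to 13.1% of miR-27a-3p, and the form 1 base shorter than the main one took 0.737% to 0.868% of miR-27b-3p against 9.44% to 12.4% of miR-27a-3p. The copies thus differed in how their 3′ ends were spread, in every sample and in the same direction. The shorter form is 19 nt long and ends at the base that separates the copies. It was not part of the base 19 check, and whether an added or misread last base contributed to it was not tested.

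miR-23a-3p and miR-23b-3p also ended differently. The most frequent miR-23a-3p read was the 21 nt RefSeq form, with 37.3% to 42.9% of the reads in 5 samples and 33.2% in LPS replicate 2. The most frequent miR-23b-3p read was 24 nt long and ended in 1 T that the hairpin lacks, with 40.3% to 44.7% in 5 samples and 37.6% in LPS replicate 2. Both shares were lowest in that library.

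Added T, read where the RNA has U, set the arms apart from each other more than the samples. The share of reads with exactly 1 unmatched T at the 3′ end had a median over the 6 samples of 48.3% for miR-23b-3p and 35.8% for miR-24-3p, against 10.2% for miR-27a-3p, 9.71% for miR-27b-3p and 8.48% for miR-23a-3p. In single samples it lay between 45% and 50.4% for miR-23b-3p and between 35.2% and 41.0% for miR-24-3p, LPS replicate 2 included. The 5p arms had less of it, with medians of 3.62% for miR-27b-5p, 0.660% for miR-27a-5p, 0.199% for miR-24-2-5p and 0% for miR-24-1-5p, the last from 31 to 243 reads per sample. Added A was rarer than added T on each 3p arm. It was most frequent on miR-24-3p in 5 samples, at 7.38% to 8.24%, and stood at 1.11% there in LPS replicate 2.

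**Figure D5:**
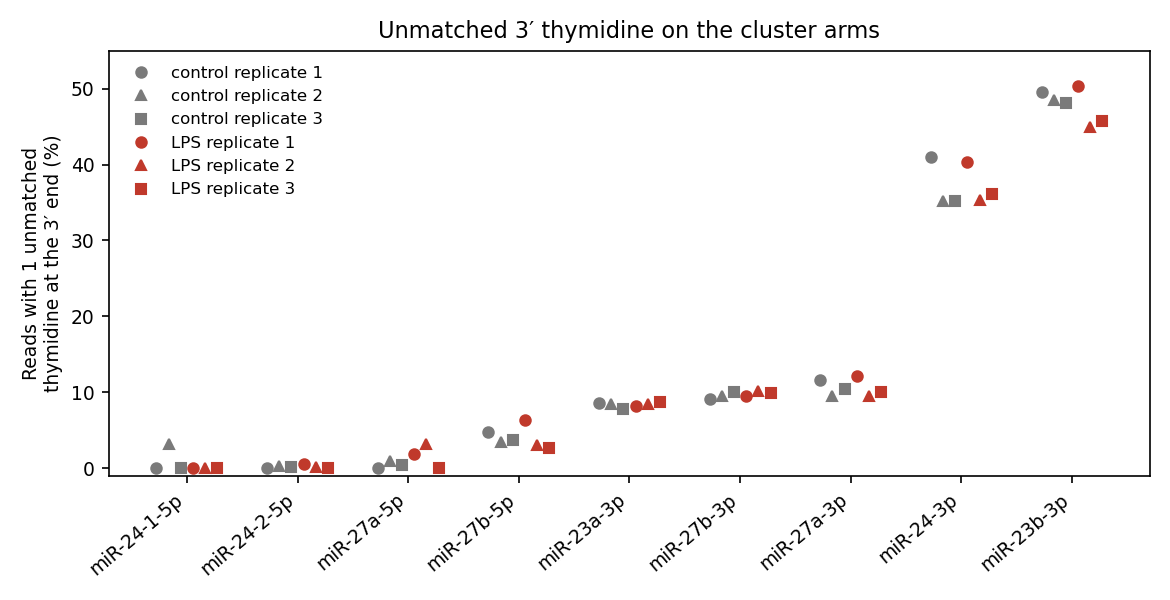
Share of reads, in percent, with exactly 1 unmatched thymidine at the 3′ end for 9 cluster arms, ordered by their median over the 6 samples, with grey symbols for control, red symbols for LPS and a shape for each replicate number. miR-23b-3p (45% to 50.4%) and miR-24-3p (35.2% to 41.0%) lie above the other 7 arms in every sample.

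On the miR-23 and miR-27 3p arms, shifted 5′ starts were rarer than unmatched 3′ bases in every sample. Reads with another start than the main one made up 0.534% to 0.603% of miR-27b-3p, 0.178% to 0.357% of miR-27a-3p and 1.36% to 2.21% of miR-23a-3p over the 6 samples. miR-23b-3p had 4.59% to 5.23% in 5 samples and 7.35% in LPS replicate 2. The miR-24 5p arms, alike over the first 16 bases, differed here. Other starts made up 2.91% to 5.42% of miR-24-2-5p and 19.4% to 29.6% of miR-24-1-5p, without overlap between them in the 6 samples.

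The 5p arms of miR-27b and Mir24-2 differed in LPS replicate 2 by their 3′ ends. For miR-27b-5p, the 22 nt form took 71.6% to 76.7% in 5 samples and 57.2% in LPS replicate 2, and the 25 nt form took 6.75% to 10.2% and 19.7%. For miR-24-2-5p, the 22 nt form took 65.5% to 70.3% in 5 samples and 61.2% in LPS replicate 2, and the 21 nt form took 24% to 28.0% and 34.4%. In that library the level of miR-27b-5p lay inside the range of the other samples, and that of miR-24-2-5p above it.

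The arms whose pattern over the 6 samples was most like that of miR-24-3p, by the highest correlation, were miR-3068-5p, miR-324-5p and miR-664-5p (Pearson r = 0.99, 0.99 and 0.99 on log2(RPM + 1), n = 6). Without LPS replicate 2 these values were 0.62, 0.82 and 0.68 over 5 samples. For miR-27b-3p they were the shared arm of Mir450-1 and Mir450-2, miR-151-3p and miR-99a-5p (r = 0.99, 0.99 and 0.99, n = 6), and without LPS replicate 2 the values were 0.92, 0.78 and 0.20 over 5 samples. For miR-23b-3p they were miR-92-2-3p, miR-221-3p and miR-130b-5p (r = 0.99, 0.97 and 0.97, n = 6), and for miR-23a-3p miR-340-3p, miR-511-5p and miR-421-3p (r = 0.95, 0.95 and 0.94, n = 6). For these last 2 arms the values without LPS replicate 2 lay between 0.94 and 0.99. No arm of the other cluster was among the 3 closest to any of these arms.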

How the data were processed

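Small RNAs of 3 control and 3 LPS samples were sequenced, and the authors trimmed the adaptor and deposited raw read counts of each distinct sequence of 11 to 40 nt, without miRNA names. The genome build in the submitters' processing notes (mm9) bears on no step used here. Reads of at least 18 nt were matched to 1174 mouse hairpins (GENCODE M21, GRCm38), allowing up to 3 unmatched 3′ bases and taking the match with fewest. Arms were merged where each held 50% or more of the reads of the other, and reads tied between arms (0.212% to 0.254% of hairpin reads) were left out. Values are reads per 1000000 hairpin reads. Arms were filtered by filterByExpr, scaled by TMM and compared by the quasi-likelihood test of edgeR 4.0.16 (R 4.3.3) with Benjamini-Hochberg adjustment, with DESeq2 1.42.0 as an alternative. Shares were compared by exact permutation tests (Python 3.11.15, scipy 1.17.1). Scripts were tested on simulated data. The files hold no normalized values, and the mapping was designed for read sequences.

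The labels number the samples of each group from 1 to 3 and state no pairing. Deviations from group means correlated across arms at 0.28 to 0.60 for same-numbered samples and at -0.39 to 0.15 for the others. The members and lists were chosen with earlier results of these data known. The text names all arms of the 6 hairpins, their most frequent reads, the 3 most similar arms, the opposite-strand hairpins and lists of LPS-responsive and cell type marker miRNAs.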

Additional observations from a re-analysis of the deposited data

How the results depend on the processing

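With no filter on low counts, edgeR called 21 arms higher with LPS and 0 lower in place of 0 and 0, miR-24-3p among them (log2 fold change 3.51, edgeR adjusted p = 6.47e-53). The spread was then set by a trend shared between arms rather than by each arm (prior degrees of freedom infinite, against 2.64 in the main fit). This p-value therefore does not reflect that miR-24-3p was high in LPS replicate 2 alone (57406 RPM, against 1505 to 2261 RPM in the other 5 samples). Every other setting run left 0 calls, though DESeq2 returned no p-value for miR-24-3p. Fitting the replicate number as a block gave 0 calls in each direction and changed no call of an arm. The block without the samples numbered 2, chosen after seeing the data, gave a log2 fold change of 0.01 for miR-24-3p and of -0.015 for miR-24-2-5p. Of 144 log2 fold changes of the 9 arms under alternatives, 135 kept direction and side of the threshold and 8 turned around. With 1 sample left out, they ran from 0.02 to 4.06 for miR-24-3p, -0.091 to 0.286 for miR-27a-5p, -0.088 to 0.198 for miR-24-2-5p and -0.113 to 0.10 for miR-27b-5p. miR-27b-5p had -0.0016 with exact matches only and -0.0031 with reads of at least 20 nt.

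Of 268 share and stoichiometry differences under alternatives, 244 kept their direction and 24 turned around, 20 of these by leaving out 1 sample. In percentage points, LPS minus control, the ranges with 1 sample left out were -0.156 to 0.737 for the miR-27a share, -0.173 to 0.101 for the Mir24-2 share and -0.027 to 0.169 for the 5p share of miR-23a. For miR-23-3p per 100 miR-27-3p reads the range was -0.077 to 0.560. For the most frequent read the ranges were -3.82 to 1.02 for miR-23a-3p, -0.600 to 4.04 for miR-27a-3p, -1.15 to 1.18 for miR-27b-3p and -0.228 to 3.80 for miR-24-3p. For shifted starts they were -0.251 to 0.176 for miR-23a-3p, -0.031 to 1.33 for miR-23b-3p and -2.39 to 0.292 for miR-24-3p. For unmatched 3′ bases they were -0.957 to 0.921 for miR-27a-3p and -5.66 to 0.979 for miR-24-3p. Exact matches only turned shifted starts of miR-23a-3p to -0.051 and the most frequent read of miR-27b-3p to 0.240. Reads of at least 20 nt turned shifted starts of miR-23a-3p to -0.036 and unmatched bases of miR-27a-3p to -0.012. The cause of these changes was not tested.

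The log2 ratio of chromosome 13 to chromosome 8 ran with 1 sample left out from 4.23 to 4.35 for the summed clusters, 4.59 to 4.72 for miR-27 and 0.247 to 0.286 for miR-23. Each of these had an exact permutation p of 0.0625, the smallest that 5 samples allow. With the samples of a replicate number averaged as a block, chosen after seeing the data, the ratios stayed at 4.27, 4.63 and 0.27 and the exact permutation p of each was 0.25, the smallest that 3 values allow. With exact matches only, the miR-23 ratio was -0.68. Depth limits the miR-23 5p arms and miR-24-1-5p most.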
